A study of Sus scrofa with 13 samples.

Results

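The hepatocyte identity transcription factors are the liver-enriched DNA-binding proteins that keep hepatocyte genes switched on. Out of 35670 genes in the count table, 9 were taken by their symbols, and each had 1 row: HNF4A, FOXA1, FOXA2, FOXA3, CEBPA, NR5A2 and PROX1, called identity factors here, and CEBPB and CEBPD, which are known to be induced by liver injury and inflammation. The rule used gene symbols alone, and the list was drawn up with earlier results of these data known. All 9 passed the filter on low counts.

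In the adult liver, HNF4A is a nuclear receptor that occupies the promoters and enhancers of many hepatocyte genes, often together with forkhead (FOXA) and C/EBP proteins. The FOXA proteins open chromatin, CEBPA maintains metabolic genes, and NR5A2 and PROX1 act as activator and corepressor on bile acid and sterol genes. During the acute phase response, cytokine signalling raises CEBPB and CEBPD, which bind the same DNA element as CEBPA.

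Pig livers were biopsied and sequenced in 13 libraries of bulk RNA. Baseline is the liver before ischemia (2 libraries, replicates 1a and 2). Ischemic controls had all blood flow to the liver clamped for 45 min and then 6 h of reperfusion, without cells (3 libraries). The arterial and the portal infusion group (4 libraries each) had the same ischemia and reperfusion as the controls. They were given human bone marrow mesenchymal stromal cells (BM-MSCs), at 3 M cells per kg body weight (M for mega), after unclamping. The cells went in buffer through a catheter to the hepatic artery (arterial) or through a needle into the portal vein (portal). The sources used here mention no buffer or catheter for the controls. No group was sampled at 6 h without ischemia. Against baseline, ischemia therefore cannot be told apart from surgery and time. The animals were female Yorkshire pigs, whose age is not given in the sources used here, and the cells were human cells given to pigs, without a group that received other cells. A pig of the portal arm was lost early to an air embolism and a pig of the arterial arm had a spasm or dissection of the hepatic artery, and the labels do not say whether either gave a library. The labels do not say which lobe a library came from or whether a baseline liver was later made ischemic, and p-values here measure the spread between these libraries.

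Libraries held between 18975413 and 35949178 counts in all, and between 13581 and 20282 genes had at least 1 read. Defining hepatocyte markers (ALB, APOA1, TTR, TF, SERPINA1, ASGR1 and CPS1, 7 of 7 matched) were abundant in all libraries. Their summed level was between 31637 and 96134 CPM (counts scaled to equal library totals). ALB had the highest mean normalized count of the 7. This level was between 49128 and 96134 CPM at baseline and between 34561 and 73281 CPM in controls. Arterial livers had between 56003 and 77169 CPM and portal livers between 31637 and 61280 CPM. The single markers went both ways at 6 h against baseline. Log2 fold changes were -0.52 for ALB, -1.31 for TF and -0.32 for CPS1. They were 0.91 for APOA1, 0.54 for TTR, 0.53 for ASGR1 and 0.097 for SERPINA1. The part of the summed level in the values of the 9 genes was not tested. On principal component 1 of the 500 most variable genes, which held 62.8% of their variance, ischemic control 2, arterial infusion 1, portal infusion 1 and portal infusion 4 lay between -93.6 and -26.3 and the other 9 libraries between 11.9 and 37.0. Between 13581 and 16993 genes had a read in those 4 libraries and between 15831 and 20282 in the others. Total counts were between 18975413 and 30260803 in those 4 libraries and between 24339939 and 35949178 in the others. The part of sequencing depth in the gene numbers was not tested. For some fold changes of the 9 genes, the value without these 4 libraries is given beside the result or in the closing section. No such values are given for other genes. In bulk tissue, fewer hepatocytes and less RNA per hepatocyte cannot be told apart.

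Levels of single genes are normalized counts, that is counts divided by DESeq2's size factors. They compare libraries and not genes, since gene length was not taken into account. Fold changes are on the log2 scale with their standard error (SE), from the quasi-likelihood fit of edgeR. Adjusted p-values come from that fit by the Benjamini-Hochberg method, with all 16481 tested genes counted.

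HNF4A, the nuclear receptor at the centre of the hepatocyte network (chromosome 17 of Sscrofa11.1, 46783772 to 46847505), had 14171 and 11553 normalized counts at baseline. The ischemic controls had 10969, 8512 and 17815. Arterial infusions 1 to 4 had 11358, 8405, 13673 and 14323, and portal infusions 1 to 4 had 10937, 10342, 12447 and 13586. The 4 groups overlapped, and the highest and the lowest library differed 2.12-fold. Group means lay close together, the highest being 12862 ± 1851 (SD, n = 2) at baseline and the lowest 11828 ± 1469 (SD, n = 4) after portal infusion. Within groups the SD of the log2 level was 0.37, and 92.8% of all tested genes had a larger one, where the median gene had 0.89. The log2 fold change of controls against baseline was -0.048 with a 95% interval from -0.99 to 0.89, so that a change of HNF4A within this interval was not detectable here. Without the 4 libraries that stood apart it was 0.17.

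The forkhead genes differed among themselves in the order of the groups. FOXA1, a pioneer factor on chromosome 7 (62471233 to 62479638), had 494 and 534 normalized counts at baseline and 487, 273 and 399 in ischemic controls. All 3 controls lay below both baseline libraries in normalized counts, the nearest pair being 487 and 494. As log2 CPM minus the baseline mean, ischemic control 1 at -0.019 lay above baseline 1a at -0.032. The separation therefore depended on the normalization. After arterial infusion FOXA1 had 385, 478, 537 and 744, and after portal infusion 284, 386, 455 and 471. The infused livers lay on both sides of baseline. Against baseline, the log2 fold change of the controls was -0.40 ± 0.44 (SE), and that of all 11 livers at 6 h was -0.25 ± 0.37 (SE). The lowest values, 273 and 284, were in ischemic control 2 and portal infusion 1, which stood apart. Without the 4 libraries that stood apart both fold changes were smaller, -0.20 for the controls and -0.089 for all livers at 6 h. Leaving out ischemic control 2 alone gave -0.18 for the controls, and leaving out ischemic control 1 gave -0.64.

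FOXA2, which in the liver is known for genes of fasting metabolism and bile acid handling and is also made in bile duct cells (chromosome 17, 29997397 to 30001704), had 357 and 338 normalized counts at baseline and 204, 413 and 327 in controls. The arterial livers had 327, 339, 373 and 173. In the portal livers it had 337, 679, 447 and 1076. Of the portal livers, 3 lay above every arterial liver and the remaining one, portal infusion 1 at 337, lay among them. The mean was 303 ± 88.9 (SD, n = 4) after arterial and 635 ± 327 (SD, n = 4) after portal infusion. The log2 fold change of arterial against portal infusion was -1.04 with a 95% interval from -1.92 to -0.16 and an unadjusted p of 0.0238. It did not pass the threshold once adjusted (edgeR, adjusted p = 1.00), and the exact permutation test gave p = 0.0857. Without portal infusion 4 the fold change was -0.69, and without the 4 libraries that stood apart it was -0.94. The summed level of 6 cholangiocyte markers (KRT7, KRT19, EPCAM, SOX9, CFTR and SPP1) was between 25.1 and 257 CPM in arterial and between 27.2 and 65.7 CPM in portal livers, with EPCAM and CFTR at 0 in at least 1 library. Its part in the FOXA2 values was not tested.

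FOXA3, the forkhead gene on chromosome 6 (52181095 to 52188777), had 1788 and 2706 normalized counts at baseline and 1932, 1952 and 1775 in controls. The controls lay close together, and the infused livers spread more widely. Arterial infusions 1 to 4 had 1587, 1181, 2725 and 985, and portal infusions 1 to 4 had 2114, 879, 1804 and 1830. No group stood clear of another. Relative to the baseline mean, 10 of 11 livers at 6 h were lower for FOXA3, with a median difference of -0.30 on the log2 CPM scale. The share of all genes with such a count was not computed. The log2 fold change of the 11 livers was -0.40 ± 0.40 (SE). The baseline mean was set by baseline 2 at 2706, and the fold change was -0.13 without that library and -0.67 without baseline 1a.

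CEBPA, the C/EBP factor of the resting hepatocyte (chromosome 6, 43083200 to 43085884), had 1198 and 665 normalized counts at baseline and 540.3, 562 and 1080.4 in controls. Arterial infusions 1 to 4 had 1151, 1085, 1077 and 715. Portal infusions 1 to 4 had 2382, 1165, 1320.3 and 1310.2. Every portal liver lay above every arterial liver, the portal mean being 1544 ± 563 (SD, n = 4) and the arterial mean 1007 ± 198 (SD, n = 4). An exact permutation test of the routes gave p = 0.0286, which is the lowest value possible for 4 livers a group. The log2 fold change of arterial against portal infusion was -0.57 ± 0.35 (SE) (edgeR, adjusted p = 1.00), and it was -0.34 without portal infusion 1. Against the ischemic controls, all 8 infused livers together had a log2 fold change of 0.74 ± 0.35 (SE) with a 95% interval from -0.011 to 1.49. In that comparison 6 of 8 infused livers lay above all 3 controls, and arterial infusions 3 and 4 lay below ischemic control 3. On the log2 CPM scale those below ischemic control 3 were arterial infusions 2 and 4. By the exact permutation test p was 0.0242, and the adjusted p of edgeR was 1.00. Without the 4 libraries that stood apart this fold change was 0.44, and that of the routes was -0.38.

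NR5A2 encodes the nuclear receptor LRH-1, an activator of bile acid and cholesterol genes, and spans 22727865 to 22866905 on chromosome 10. It had 1390.0 and 1784 normalized counts at baseline and 1884, 1347 and 777 in controls. After arterial infusion it had 486, 741, 1373 and 1021, and after portal infusion 575, 1041, 1199 and 634. Means were 1587 ± 279 at baseline (SD, n = 2), 1336 ± 554 in controls (SD, n = 3) and 905 ± 381 (SD, n = 4) and 862 ± 305 (SD, n = 4) in arterial and portal livers. The infused livers overlapped the controls, and the highest of them, at 1373, was close to the lower baseline library at 1390.0. The log2 fold change of infused livers against controls was -0.61 ± 0.39 (SE), where p was 0.152 in the exact permutation test, and it was -0.30 without the 4 libraries that stood apart. For all livers at 6 h against baseline NR5A2 had a log2 fold change of -0.65 ± 0.43 (SE), and -0.43 without these libraries. Among the libraries that stood apart, 3 had the 3 lowest infused values of NR5A2.

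PROX1, the homeobox corepressor of HNF4A and NR5A2, lies on chromosome 9 (129527704 to 129583693) and was the member whose livers at 6 h stood clear of baseline. It had 1141 and 1486 normalized counts at baseline. The controls had 705, 643 and 210.3, the arterial livers 112, 327, 563 and 553, and the portal livers 185, 560.4, 795 and 443. All 11 livers at 6 h were below both baseline libraries, and the highest of them, portal infusion 3 at 795, was below the lower baseline library at 1141. The baseline libraries averaged 1314 ± 244 (SD, n = 2), and the livers at 6 h 519 ± 269 (SD, n = 3), 389 ± 214 (SD, n = 4) and 496 ± 254 (SD, n = 4) in controls, arterial and portal livers. For all livers at 6 h against baseline the log2 fold change was -1.50 ± 0.54 (SE) with a 95% interval from -2.66 to -0.35. Its unadjusted p was 0.0142 and its adjusted p, by edgeR, 0.860, above the threshold, and p was 0.0385 by the exact permutation test. Among the 3 groups at 6 h PROX1 did not separate, with a log2 fold change of -0.24 for infused livers against controls and a 95% interval from -1.37 to 0.88. Without the 4 libraries that stood apart this fold change was 0.31.

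The low values of PROX1 were not all in the libraries that stood apart. Arterial infusion 1 at 112 and portal infusion 1 at 185 were among these 4 libraries, and ischemic control 3 at 210.3 was not. Without the 4 libraries the log2 fold change of livers at 6 h against baseline was -1.29, and with each library left out in turn it stayed between -1.67 and -1.35. PROX1 is also made in lymphatic endothelium. The summed level of 5 markers listed for sinusoidal, not lymphatic, endothelium (STAB1, LYVE1, PECAM1, CDH5 and KDR) was 433 and 453 CPM at baseline. It was between 167 and 612 CPM at 6 h. Of 11 livers, 10 were below both baseline libraries and arterial infusion 4 was above them. The part of either kind of endothelium in the PROX1 values was not tested.

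**Figure D1:**
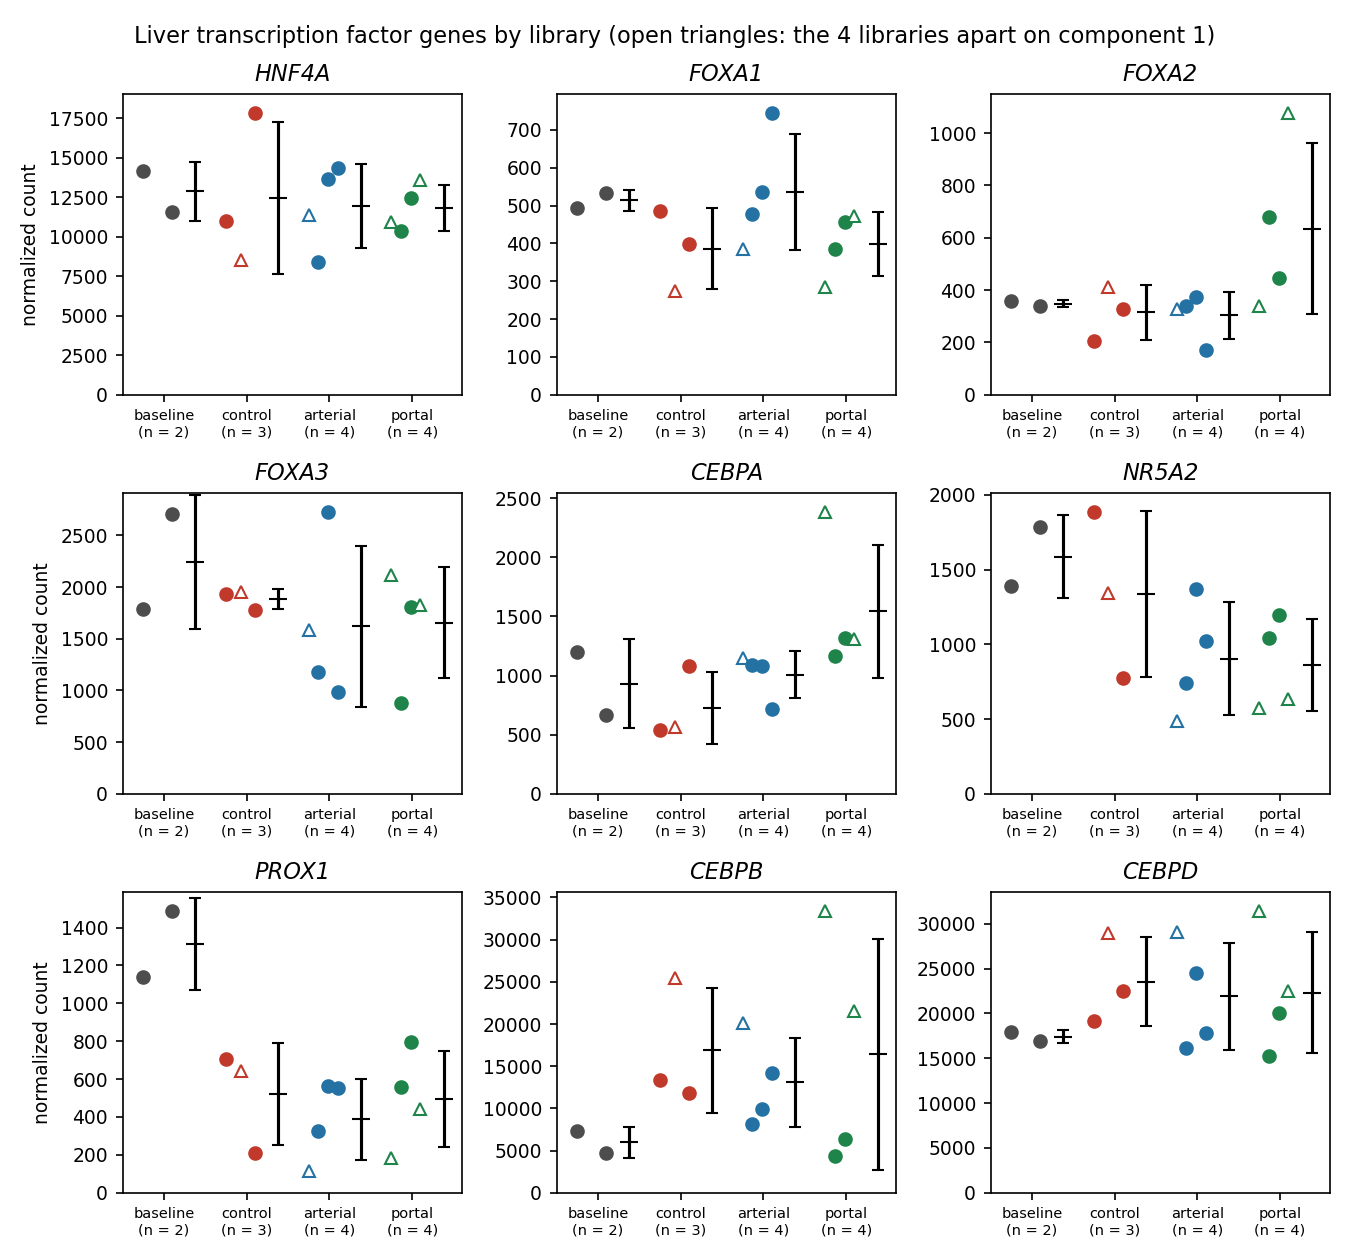
Normalized counts (y axis, from 0) of the 9 genes in each library, by group (x axis), with the mean and SD of each group as a black bar. Open triangles are the 4 libraries that stood apart on principal component 1. All 11 livers at 6 h lie below both baseline libraries for PROX1, and the 4 triangles hold the 4 highest values of CEBPB.

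CEBPB, the C/EBP factor of the acute phase response, lies on chromosome 17 (51722633 to 51723673) and had 7277 and 4697 normalized counts at baseline. The controls had 13316, 25422 and 11861, and all 3 were above both baseline libraries. Arterial infusions 1 to 4 had 20101, 8209, 9921 and 14137, also all above baseline. The portal livers were split, with 33367 and 21490.2 in portal infusions 1 and 4 and 4405 and 6313 in portal infusions 2 and 3, which lay within or below the range of baseline. Baseline averaged 5987 ± 1825 (SD, n = 2), and the other groups 16866 ± 7445 (SD, n = 3) in controls, 13092 ± 5295 (SD, n = 4) after arterial and 16394 ± 13656 (SD, n = 4) after portal infusion. The log2 fold change of controls against baseline was 1.47 ± 0.74 (SE) with a 95% interval from -0.11 to 3.05. By edgeR its adjusted p was 0.978, and by the exact permutation test p was 0.1, which is the lowest value possible with so few libraries.

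The 4 highest libraries for CEBPB, between 20101 and 33367, were the 4 that stood apart on principal component 1. All other livers at 6 h had between 4405 and 14137. Without these 4 libraries the log2 fold change was 1.09 for controls against baseline and 0.60 for all livers at 6 h against baseline, where it was 1.31 with them. The numbers of genes with a read in these libraries are given above, and neutrophil markers (S100A8, S100A12, CSF3R and MPO, 4 of 6 matched) also varied, with a summed level between 24.9 and 26.5 CPM at baseline, between 41.7 and 344 CPM in controls and between 17.5 and 294 CPM in infused livers. MPO was at 0 in at least 1 library. For Kupffer cells and macrophages (6 of 6 markers matched) the summed level was between 446 and 878 CPM at baseline. It was between 776 and 1076 CPM in controls, between 393 and 718 CPM in arterial and between 415 and 601 CPM in portal livers. In ischemic control 2, arterial infusion 1, portal infusion 1 and portal infusion 4, which stood apart, it was 950, 537, 415 and 519 CPM. The neutrophil level in these 4 libraries, in the same order, was 344, 294, 124 and 82.1 CPM. Other livers at 6 h had between 17.5 and 177 CPM for neutrophil markers and between 393 and 1076 CPM for Kupffer and macrophage markers. CEBPB and CEBPD are also made in myeloid cells, and the part of such cells in the values was not tested.

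CEBPD, the partner of CEBPB in the acute phase response (chromosome 4, 79872863 to 79874481), had 17906 and 16923 normalized counts at baseline and 19173, 28932 and 22452 in controls. All 3 controls were above both baseline libraries. Arterial infusions 1 to 4 had 29131, 16184, 24478 and 17842, and portal infusions 1 to 4 had 31406, 15302, 20043 and 22499. The infused livers lay on both sides of baseline. The log2 fold change of controls against baseline was 0.42 ± 0.44 (SE), and that of all livers at 6 h against baseline was 0.35 ± 0.38 (SE). The 3 highest values, 31406, 29131 and 28932, were in portal infusion 1, arterial infusion 1 and ischemic control 2, which stood apart. Without the 4 libraries that stood apart the fold changes were 0.27 and 0.16. CEBPD varied least of the 9 genes within groups, with an SD of 0.33 on the log2 scale, and 95.7% of all tested genes had a larger one. Its highest and lowest library differed 2.05-fold, against 7.58-fold for CEBPB and 13.2-fold for PROX1.

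None of the 9 genes passed the adjusted threshold of 0.05 in any comparison by edgeR, and no other gene did (0% of 16481 genes in each). At an unadjusted p under 0.05, 0 of 9 members were found for controls against baseline (4.37% of all genes), 1 of 9, PROX1, for all livers at 6 h against baseline (4.78% of all genes), 0 of 9 for infused livers against controls (2.14%), 1 of 9, FOXA2, for arterial against portal infusion (2.4%), and 0 of 9 for any difference among the 4 groups (2.39%). Shares of this size over 9 genes are close to those of all genes. DESeq2 over all 13 libraries called no member either. Of the whole table it called 5 genes for controls against baseline and 14 for all livers at 6 h against baseline. It called 1 each for infusion and for the routes, and 7 over the 4 groups. DESeq2 on controls and baseline alone, which is nearer to the pairwise DESeq2 tests of the authors, called 166 genes and no member.

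Groups that did not overlap were counted in the same way. Between controls and baseline, 2 of 9 members were higher without overlap, CEBPB and CEBPD, where 14.8% of all genes were, and 2 of 9 were lower without overlap, FOXA1 and PROX1, where 16.3% of all genes were. These shares are near the background. They are of normalized counts, and on the log2 CPM scale FOXA1 of the controls overlapped baseline. For all livers at 6 h against baseline no member was higher without overlap (3.3% of all genes) and PROX1 was lower (3.97%). No member separated infused livers from controls, in either direction (0.225% of all genes higher and 0.34% lower). Between the routes, no member was higher after arterial infusion (0.91%) and 1 member, CEBPA, was lower (0.498%).

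For the remaining members the groups overlapped, both between infused livers and controls and between the routes. CEBPB had a log2 fold change of -0.24 ± 0.52 (SE) for infused livers against controls. It was 0.15 without ischemic control 2 and -0.73 without all 4 libraries that stood apart, so that its direction depended on single livers. Between the routes CEBPB had -0.25 ± 0.55 (SE), which turned to 0.31 without portal infusion 1 and to 0.99 without the 4 libraries. CEBPD had -0.11 ± 0.32 (SE) for infusion, and its interval reached from -0.80 to 0.57. HNF4A had -0.09 ± 0.33 (SE) for infusion and 0.04 ± 0.34 (SE) for the routes, where its interval reached from -0.69 to 0.77. For infusion FOXA1 had 0.23 ± 0.33 (SE), FOXA2 0.47 ± 0.40 (SE) and FOXA3 -0.23 ± 0.35 (SE). Between the routes FOXA1 had 0.44 ± 0.34 (SE), with 3 of 4 arterial livers above the highest portal liver at 471 normalized counts. As log2 CPM minus the baseline mean, arterial infusion 2 at -0.142 lay below portal infusion 3 at -0.138.

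**Figure D2:**
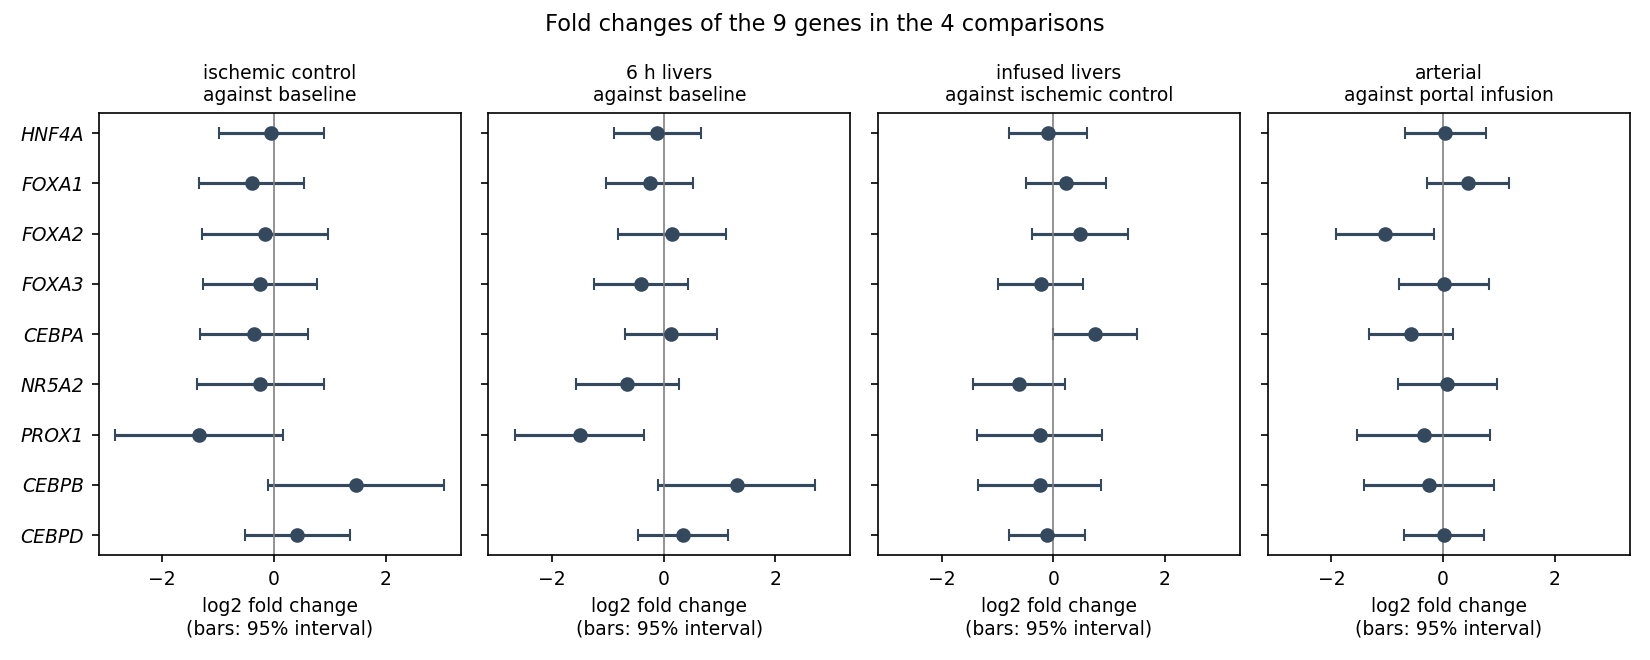
Log2 fold changes (x axis) of the 9 genes in the 4 comparisons, with 95% intervals from edgeR's quasi-likelihood fit as bars. The intervals leave out 0 for PROX1 in all livers at 6 h against baseline (-2.66 to -0.35) and for FOXA2 in arterial against portal infusion (-1.92 to -0.16), before adjustment for the number of genes.

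To set the identity factors against the injury-induced pair, each gene was taken in every library as its log2 CPM minus its mean over both baseline libraries. The mean of the 7 identity factors lay below 0 in 11 of 11 livers at 6 h, between -0.90 in arterial infusion 1 and -0.040 in arterial infusion 3. It was -0.46 ± 0.13 (SD, n = 3) in controls, -0.54 ± 0.36 (SD, n = 4) after arterial and -0.33 ± 0.28 (SD, n = 4) after portal infusion. CEBPB lay above 0 in 10 of these 11 livers, with a median of 1.25, and CEBPD in 9 of them, with a median of 0.29. The count of 11 rested on PROX1. Without PROX1 the mean of the remaining 6 factors lay below 0 in 8 of 11 livers and above 0 in 3, which were arterial infusion 3 (0.15), portal infusion 3 (0.042) and portal infusion 4 (0.014). PROX1 was below its baseline mean in 11 of 11 livers with a median of -1.25, NR5A2 in 10 with a median of -0.65, FOXA3 in 10 and FOXA1 in 9 with medians of -0.30 and -0.21, and HNF4A in 7 with a median of -0.16. FOXA2 was below its baseline mean in 6 of 11 livers with a median of -0.073, and CEBPA in 3 with a median of 0.31. For these counts of livers the share of all tested genes that reach them was not computed. The counts alone therefore show no shift particular to these genes.

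CEBPB minus the identity mean was 1.90 ± 0.60 (SD, n = 3) in controls, 1.60 ± 0.80 (SD, n = 4) after arterial infusion and 1.31 on average after portal infusion, on the log2 scale. In single livers it went from -0.051 in portal infusion 2 and 0.21 in portal infusion 3 to 3.08 in portal infusion 1. The 4 libraries that stood apart had the 4 highest values, 2.59, 2.64, 3.08 and 2.02 in ischemic control 2, arterial infusion 1, portal infusion 1 and portal infusion 4. The remaining livers at 6 h had between -0.051 and 1.79. CEBPD minus the identity mean was above 0 in 11 of 11 livers, between 0.17 in portal infusion 2 and 1.60 in arterial infusion 1. The identity mean in both differences includes PROX1, so that their size rests partly on it. In portal infusion 2 CEBPD lay at -0.15, and the identity mean at -0.33 with PROX1 and at -0.18 without it. These are descriptions of the 9 chosen genes, relative to 2 baseline libraries, of which baseline 1a lay at 0.34 and baseline 2 at -0.34 for CEBPB.

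**Figure D3:**
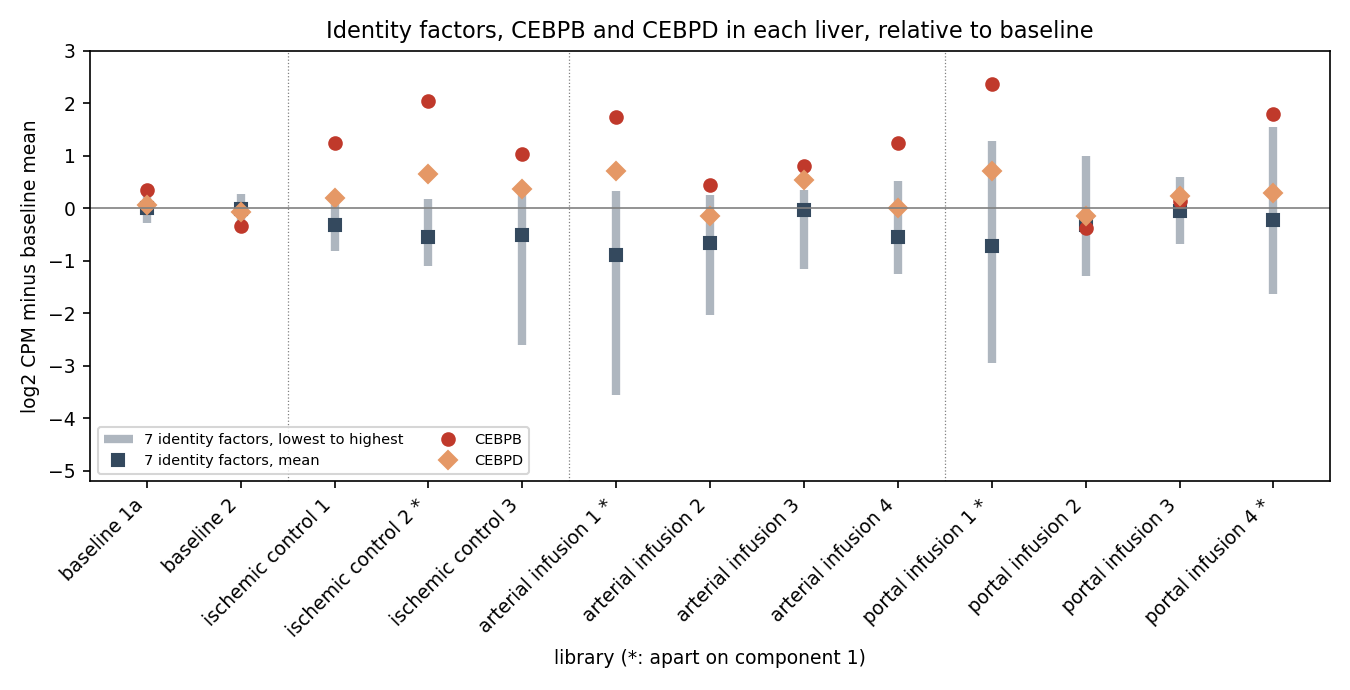
Log2 CPM minus the baseline mean (y axis) in each library (x axis) for CEBPB, CEBPD and the mean of the 7 identity factors, with the lowest and highest identity factor as a grey bar. Asterisks mark the 4 libraries that stood apart. The identity mean, PROX1 included, is below 0 in all 11 livers at 6 h, and CEBPB lies above it in every one of them but portal infusion 2.

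Genes of the same network were described from lists that had been written down by function. Among 20 other liver transcription factors, 10 had a log2 fold change above 0 and 10 below 0 in all livers at 6 h against baseline, with a median of -0.13 where the median of all genes was -0.013. None passed the adjusted threshold. At an unadjusted p under 0.05, RXRA, the common partner of many nuclear receptors, was higher (1.48 ± 0.64, SE), and PPARA and TBX3 were lower (-1.57 and -1.52). PPARA and TBX3 are named because of these values. ATF5, a stress-related bZIP factor, had the highest mean normalized count of the list and a log2 fold change of -0.52 ± 0.40 (SE). NR1H3, the oxysterol receptor LXR alpha, had one of 0.57 ± 0.38 (SE). CREB3L3, a membrane-bound bZIP factor of hepatocytes, had one of 1.13 ± 0.55 (SE).

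Among 8 other genes of the C/EBP family and its bZIP partners, 5 were above and 3 below 0 in the same comparison, with a median log2 fold change of 0.034 and none at an unadjusted p under 0.05. ATF4, the factor of the integrated stress response, had a log2 fold change of 0.024 ± 0.41 (SE), and CEBPG, which dimerizes with other C/EBP proteins, one of -0.79 ± 0.48 (SE). ATF3 and NFIL3 had 0.77 and 0.69, with SEs of 1.12 and 0.58.

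Of the signals upstream of CEBPB and CEBPD, 13 of 14 genes were matched, and 6 were above and 7 below 0 in all livers at 6 h against baseline, with a median of -0.32. IL1R1, the interleukin-1 receptor, had the highest mean normalized count of them and a log2 fold change of -1.05 ± 0.48 (SE). NFKBIA, the inhibitor of NF-kB, had 1.52 ± 0.55 (SE). These 2 had an unadjusted p under 0.05, and NFKBIA is named for that reason. TNF, a cytokine that acts upstream of both genes, is named because it had the lowest p of the list in another comparison. It had 40 and 43 reads at baseline, 17, 2791 and 32 in controls, and between 5 and 58 in infused livers, so that its level was high in ischemic control 2 alone. Its log2 fold change was 5.35 ± 1.95 (SE) for controls against baseline and -5.67 ± 1.10 (SE) for infused livers against controls, and neither passed the adjusted threshold (edgeR, adjusted p = 0.978 and 0.823). STAT3, the main transducer of interleukin-6, had -0.82 ± 0.47 (SE), and SOCS3, its feedback inhibitor, had 0.54 ± 0.45 (SE). IL6ST, the shared receptor chain of the interleukin-6 family, had 0.026 ± 0.40 (SE).

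The acute phase genes that C/EBP proteins bind went both ways. Of 11 matched genes out of 15 listed, 4 were above and 7 below 0 in all livers at 6 h against baseline, with a median log2 fold change of -0.41 and none at an unadjusted p under 0.05. The fibrinogen chain genes FGB and FGG had -0.41 and -0.59, with SEs of 0.71 and 0.85, ITIH4 had -0.090 ± 0.48 (SE), and the complement gene C3 had -0.57 ± 0.39 (SE). The 4 genes above 0 were CD14 at 0.60, HAMP at 0.49, HPX at 0.38 and CRP at 0.34, and they are named after their values were seen.

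Hepatocyte genes known as targets of HNF4A, FOXA and CEBPA also went both ways. Of 20 genes, 8 were above and 12 below 0 in all livers at 6 h against baseline, with a median of -0.24. ALB had a log2 fold change of -0.52 ± 0.57 (SE) and TF, the transferrin gene, one of -1.31 ± 0.70 (SE), while the apolipoprotein genes APOC3 and APOA1 had 2.36 and 0.91, with SEs of 1.08 and 0.54. APOC3 and APOA2 were the genes with an unadjusted p under 0.05, both above baseline, and APOA2 is named because of its value of 1.72. Of 8 bile acid and sterol genes that NR5A2 regulates, 3 were above and 5 below 0, with a median of -0.38. NR0B2, the corepressor SHP, had 0.59 ± 0.95 (SE), SCARB1 and SLC10A1 had 0.16 and -0.36, and the bile salt export pump gene ABCB11 had -1.38 ± 0.56 (SE). ABCB11 and CYP7A1 were the genes with an unadjusted p under 0.05, both below baseline, and CYP7A1, at -3.61, is named for that reason.

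**Figure D4:**
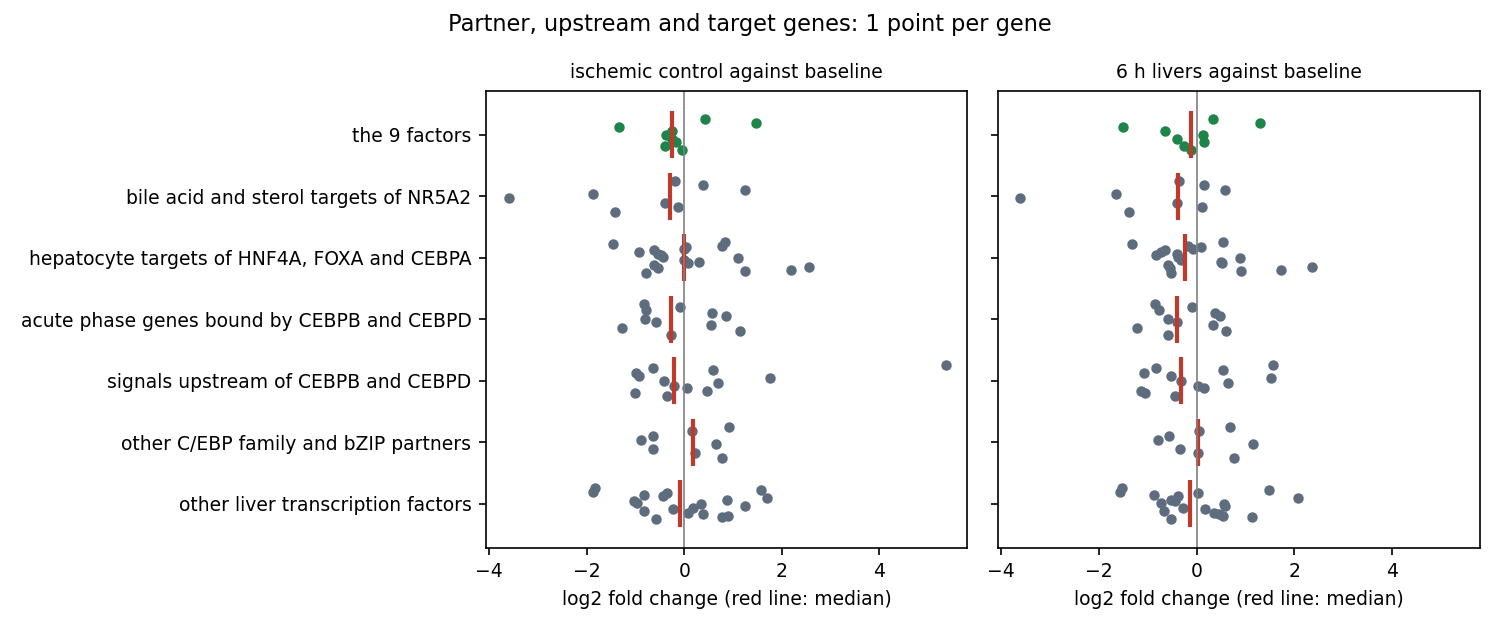
Log2 fold changes (x axis) of the 9 factors and of the genes of 6 lists (y axis), 1 point per gene, for controls against baseline and for all livers at 6 h against baseline. The red line is the median of each list, and each list has points on both sides of 0.

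For arterial against portal infusion the median log2 fold change of all genes was 0.036. The lists had 7 of 20 other liver transcription factors above 0 (median -0.12), 8 of 8 bZIP genes (0.29), 10 of 13 upstream signals (0.26), 2 of 11 acute phase genes (-0.078), 15 of 20 hepatocyte targets (0.23) and 5 of 8 NR5A2 targets (0.21). None of these genes passed the adjusted threshold.

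The genes whose pattern over the 13 libraries was most like that of a member were taken by Pearson's r of log2 CPM, among 12857 tested genes with a symbol. For HNF4A they were PIP4P1, TRIM39, SLC38A7, ESPL1 and RAD9A, with r between 0.82 and 0.89. For CEBPB they were MEN1, EPO, ALKBH5, SOD3 and TRIR, with r between 0.94 and 0.96, and for CEBPD ZNF579, CHMP1A, ZNF580, GPKOW and RASSF7, with r between 0.90 and 0.91. The values of r are descriptions, and the points share their library, its depth and its composition. The pattern of CEBPB includes the 4 libraries that stood apart.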

How the data were processed

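RNA from pig liver was enriched for mRNA, made into non-directional paired-end libraries and sequenced by the authors, who removed low-quality reads, mapped the rest to Sscrofa11.1 (Ensembl 110) with HISAT2, counted reads per gene with FeatureCounts and deposited raw counts without normalization. Tool versions and the treatment of multiply mapped reads are not given in the sources used here. Without strand, reads of HNF4A and of PROX1 cannot be told apart from those of the 1 RefSeq gene that overlaps each. The labels name all 13 columns, and 0 were left unassigned. No pair of libraries was a copy (smallest chi-square per gene 77.1).

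Tests used R 4.3.3 and edgeR 4.0.16 (filterByExpr, TMM factors, quasi-likelihood test) with all 13 libraries fitted together, and p-values adjusted by Benjamini and Hochberg's method were called under 0.05. Standard errors are the fold change divided by the root of F. DESeq2 1.42.0 gave size factors and an alternative test. Exact permutation tests are two-sided, on log2(normalized count + 1). Log2 CPM values have a prior count of 2. Principal components were computed on them. The fits were tested on simulated data beforehand.

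The members and lists were chosen with earlier results of these data known. From each list, the 4 genes with the highest mean level are named, with exceptions stated. Of 122 list and marker symbols, 114 were matched. CXCR2, FGA, HP, IL1B, ORM1, S100A9, SAA3 and STAB2 were not and are not analysed here. Coordinates are from RefSeq's annotation of Sscrofa11.1, matched by symbol. Counts are reads, not molecules. Promoter motifs were planned and not analysed here.

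The alternatives were DESeq2, edgeR or DESeq2 on the compared groups alone, RLE and upper quartile factors, no filter or a stricter one (10 counts or more per library), removal of mitochondrial and small RNA genes, the replicate number as a block, and each library left out in turn. Leaving out the 4 libraries that stood apart was added after the data were seen.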

Additional observations from a re-analysis of the deposited data

Results flagged for a closer look

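CEBPA held both flagged values among 18 sets of 4 livers (9 genes in 2 infusion groups). Arterial infusion 4, at 715 normalized counts, lay far below the other arterial livers, and portal infusion 1, at 2382, far above the other portal livers. Dixon's test marks about 1 in 20 sets by chance, and both values stand within the comparison of the routes for CEBPA given above.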

How the results depend on the processing

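No member passed the adjusted threshold under any alternative (smallest adjusted p 0.159). The 999 member values under alternatives include adjusted p-values over the 4 groups, which have no direction. Of the log2 fold changes among them 43 reversed direction. Genes called, 0 as reported, came to 5, 14, 1 and 1 in the 4 comparisons (controls against baseline, all livers at 6 h against baseline, infused livers against controls, arterial against portal infusion) and 7 over the 4 groups with DESeq2 on all 13 libraries. Without a filter on low counts they came to 30, 28, 19, 5 and 95, and DESeq2 on the compared groups alone called 166 for controls against baseline. Without the 4 libraries that stood apart 1 gene was called for infused livers against controls and 1 over the 4 groups. The cause of these changes was not tested. In that setting HNF4A turned to 0.17 for controls against baseline, PROX1 to 0.31 for infused livers against controls, and CEBPB to 0.99 and NR5A2 to -0.11 for arterial against portal infusion. All other reversals under fixed settings were of differences near 0 between the routes. FOXA3 was -0.033 with DESeq2 on all libraries or the compared groups alone, -0.032 with RLE factors, -0.036 with upper quartile factors and -0.064 with at least 10 counts in every library, where HNF4A was -0.0037. CEBPD was -0.026 with DESeq2 on all libraries and with RLE factors, -0.028 with DESeq2 on the compared groups, -0.024 with upper quartile factors and -0.052 with the stricter filter. The replicate block turned FOXA3 to -0.054 and changed no call. The labels share only numbers, and deviations of 5 of 16 same-numbered pairs correlated above 0.1. With each library left out in turn, directions turned for controls against baseline in HNF4A (-0.38 to 0.19), FOXA2 (-0.36 to 0.050), FOXA3 (-0.51 to 0.032), CEBPA (-0.76 to 0.14) and NR5A2 (-0.62 to 0.050). They turned for all livers at 6 h against baseline in HNF4A (-0.29 to 0.054, without baseline 1a) and CEBPA (-0.27 to 0.63, without baseline 2). For infused livers against controls they turned in HNF4A (-0.33 to 0.24), PROX1 (-0.64 to 0.095), CEBPB (-0.52 to 0.15, without ischemic control 2) and CEBPD (-0.21 to 0.030). For arterial against portal infusion they turned in HNF4A (-0.054 to 0.19), FOXA3 (-0.39 to 0.20), NR5A2 (-0.22 to 0.31), PROX1 (-0.64 to 0.0049), CEBPB (-0.56 to 0.31, without portal infusion 1) and CEBPD (-0.15 to 0.18). With each library left out, 0 genes were called. FOXA1, PROX1, CEBPB and CEBPD kept their direction in both comparisons with baseline in all alternatives. The 2 baseline libraries limit every comparison with baseline.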
